A study of Coturnix japonica with 42 samples.

Results

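The 10 arrays described here cover the late hours of the first long day given to male Japanese quail, hours 18 to 22, and the matching night hours of the short day before it. They were taken by their titles from a series of 42 arrays over 21 time points. The first long day is represented by times 42, 44 and 46 h (6 arrays) and the short day by times 18 and 22 h (4 arrays). All birds were male Japanese quail, 8 weeks old, held for 4 weeks on days with 6 h of light and nights of 18 h. The short-day birds were still in that regime, and the long-day birds had been switched to 20 h of light with 4 h of dark. Each array carried RNA of the mediobasal hypothalamus pooled from 3 birds, with 2 arrays for every time, and n therefore counts pools of birds. The probes were designed for chicken, which limits what a dim probe set says about quail.

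Times were taken to count from the onset of the short day, with lights on at that moment, which the labels do not state. On that reading the light of the long day was still on at hour 18, went off at hour 20, and both regimes were dark at hour 22. Hour 20 was not sampled on the short day, and the mean of hours 18 and 22 stood in for it.

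The mediobasal hypothalamus reads day length in birds. Long days raise thyrotropin in the pars tuberalis of the pituitary stalk, and thyrotropin acts through a receptor coupled to cyclic AMP on tanycytes, the glial cells lining the third ventricle. In these cells it raises the deiodinase DIO2, which converts thyroxine to the active triiodothyronine, and lowers DIO3, which inactivates both hormones. The local rise of active thyroid hormone is known to lead to gonadotropin release and growth of the gonads.

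Between hours 18 and 22 the deiodinases had changed over, and thyrotropin transcripts were above their level in the short-day night. A small set of further genes also differed from the short day. Of 32057 probe sets tested with limma, 23 passed an adjusted p of 0.05, which is 0.0717%. Of these, 15 were higher on the long day (0.0468%) and 8 were lower (0.025%). Without adjustment 1716 had a p under 0.05, of which 938 were higher. The 23 comprised 19 probe sets of 18 named genes and 4 without a gene symbol. Counted by the brightest probe set of each gene, 16 of 12311 genes passed (0.13%). In 19 of the 23 no array of one group reached the range of the other, 12 higher and 7 lower. Over all tested probe sets 423 were separated in that way (1.32%). Differences in log2 are long minus short day, except where another comparison is named. Signals are on a scale common to all arrays and start from a floor of 3.509 before log2 is taken. In bulk tissue such as this, fewer cells of a type and less RNA per cell cannot be told apart.

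**Figure D1:**
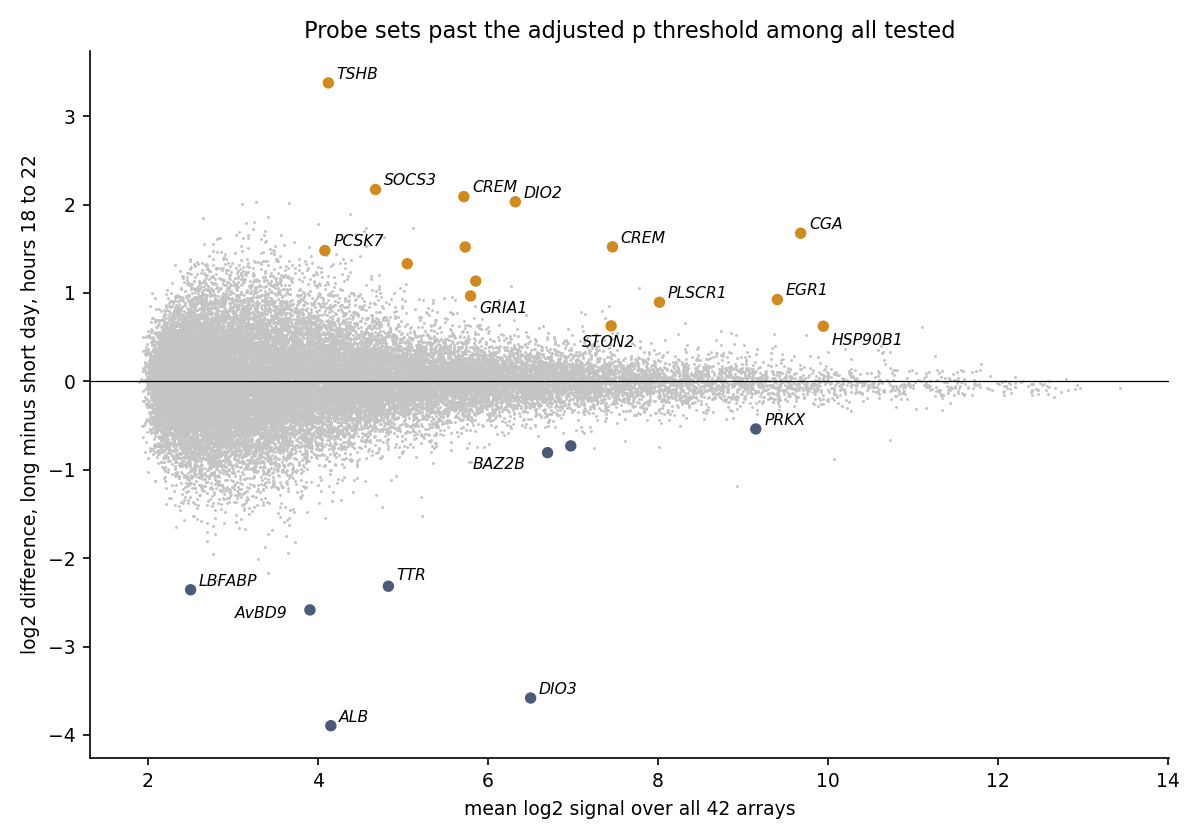
Each point is 1 of 32057 tested probe sets, with its mean log2 signal over all 42 arrays (horizontal) and its log2 difference between the first long day at hours 18 to 22 and the short day at hours 18 and 22 (vertical). The 15 probe sets called higher are orange and the 8 called lower blue, with TSHB highest at 3.38 and ALB lowest at -3.90. The 4 coloured points without a name have no gene symbol. Calls rest on the adjusted p, and uncalled grey points can differ by as much as called ones, as CISH does at 1.36.

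The deiodinases moved in opposite directions and were among the clearest changes of these hours. DIO3 had the smallest p of all probe sets. Its signal was 383 and 493.1 in the arrays of short-day hour 18 and 439 and 525.5 in those of hour 22. In the 6 long-day arrays it ran from 27.5 through a median of 36.9 to 63.1. The ranges lay far apart, and DIO3 fell 12.0-fold (95% interval 8.34 to 17.2, log2 difference -3.58, SE 0.258, limma adjusted p = 1.66e-11). DIO2 read 54.4 and 57.5 at short-day hour 18 and 33.4 and 57.2 at hour 22. In the long-day arrays the lowest DIO2 signal was 162, the median 202 and the highest 263. Again the groups did not overlap, and DIO2 rose 4.09-fold (interval 3.03 to 5.51, log2 difference 2.03, SE 0.212, adjusted p = 1.31e-07). A second, dimmer DIO2 probe set had a difference of 1.65 that did not pass (adjusted p = 0.233), with short-day signals of 2.03 to 9.43 and long-day signals of 12.0 to 32.0.

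Both subunits of thyrotropin, the hormone upstream of the deiodinases, were higher. TSHB, the beta subunit, read 9.90 and 9.18 at short-day hour 18, and both arrays of hour 22 lay below the floor. The long-day arrays ran from 25.9 through 70.7 to 106, without overlap, and the highest values came from hour 18. TSHB rose 10.4-fold (interval 6.23 to 17.3, log2 difference 3.38, adjusted p = 2.16e-07), a size that depends on the floor and ran from 1.84 to 3.65 log2 over 25 alternative analyses. CGA, the alpha subunit that all glycoprotein hormones share, read 125 and 195 at short-day hour 18 and 358 and 347 at hour 22. Its long-day signals were 527 at the lowest, 749 at the median and 967 at the highest. CGA was 3.20-fold higher (interval 2.54 to 4.02, log2 difference 1.68, adjusted p = 3.64e-08). At other hours CGA had read as high or higher, with 957.4 to 1176 at short-day hours 6 and 10 and 826 to 1483 at 30 to 40 h. The difference was thus one from low night values of the short day. The call of CGA was not made when the 10 arrays were fitted alone with 1 mean per group (adjusted p = 0.0524).

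The rest of the thyroid hormone and photoperiod list gave 1 more call, TTR. Of 25 tested members, 3 were called higher (TSHB, CGA and DIO2) and 2 lower (DIO3 and TTR, a thyroid hormone carrier). The median difference of the list was -0.07 log2, against 0.001 over all genes. At an unadjusted p under 0.05 there were 4 higher and 4 lower, 32% of the list against 5.72% of all genes. This list and those below were chosen with earlier results of these data known, so such shares are descriptions with no test. TSHR, the thyrotropin receptor, had signals of 29.4 to 43.1 on the short day and 22.0 to 43.8 on the long day (difference -0.07, adjusted p = 1). SLCO1C1, a thyroid hormone transporter, read 288 to 443 and 220 to 409 (difference -0.15, adjusted p = 1). TSHR and SLCO1C1 stand outside the rule for named genes and were picked for their place in the pathway after their values were seen. EYA3 and RRH stand outside it too and are given for their unadjusted p. EYA3 had a difference of 0.66 (limma unadjusted p = 0.0496, adjusted p = 0.932), with 1.77, 0.79 and -0.585 at hours 18, 20 and 22. For RRH the difference was -0.96 (unadjusted p = 0.0246, adjusted p = 0.858), with 3 long-day arrays at the floor.

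**Figure D2:**
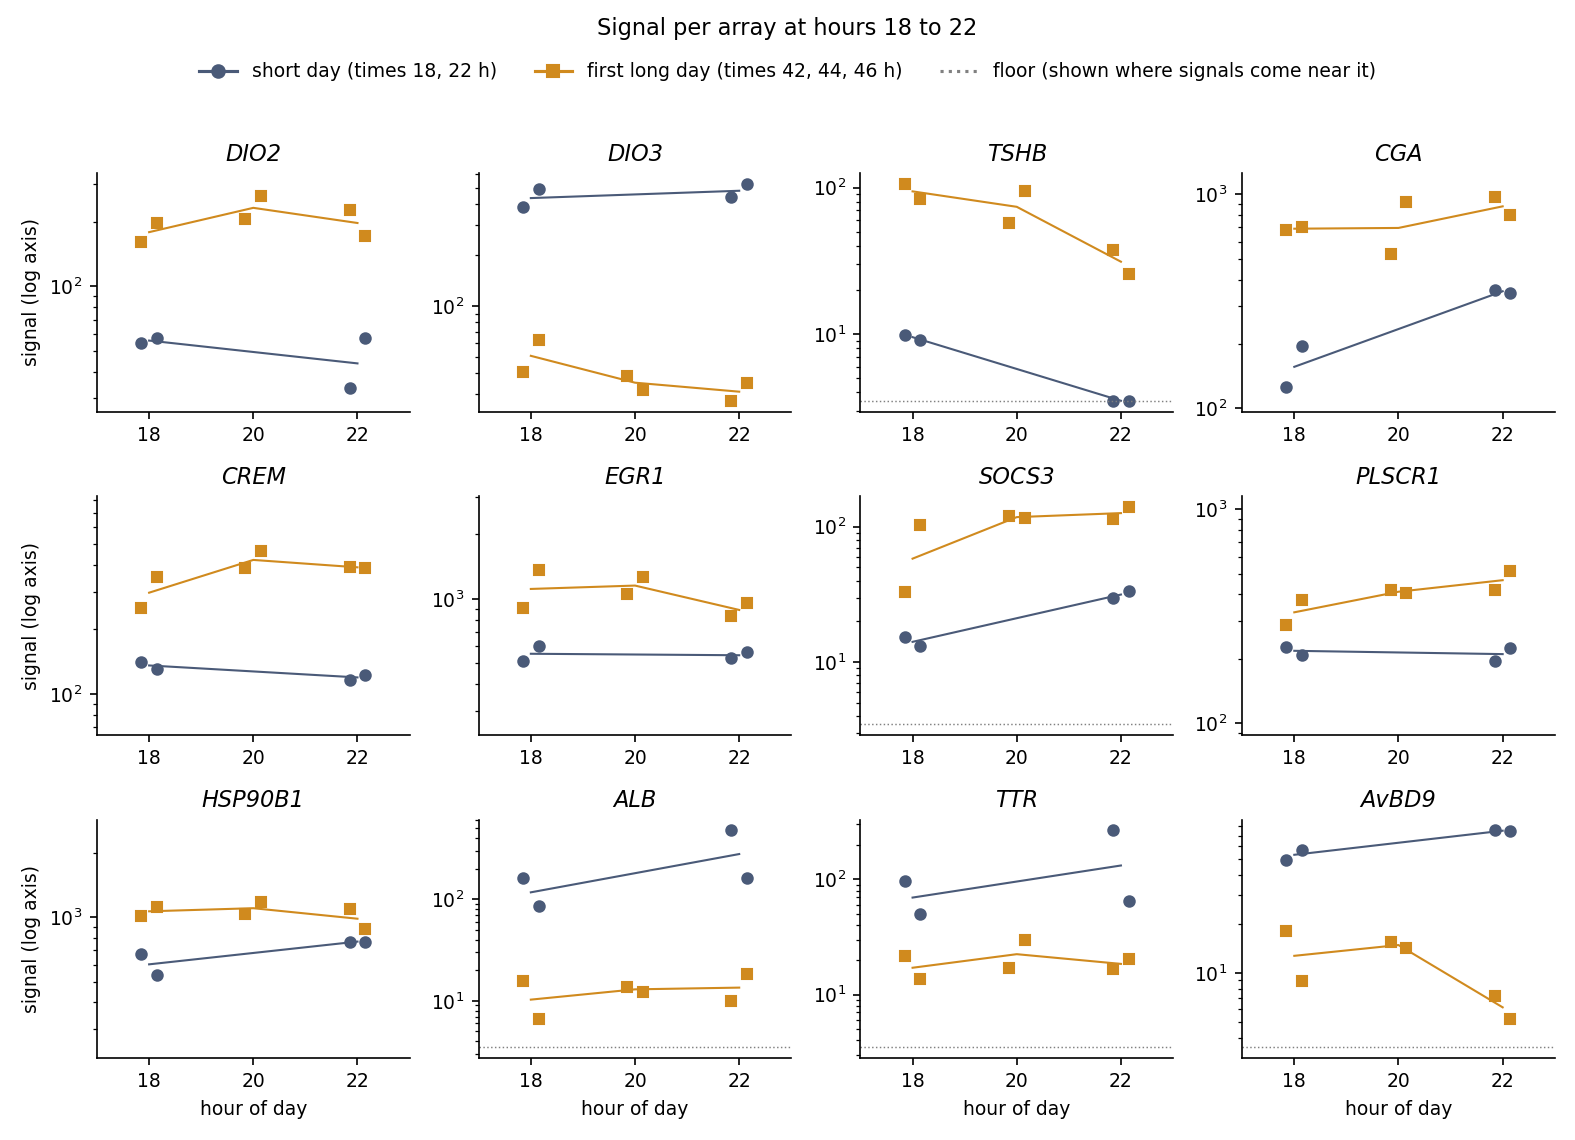
Signal on a log axis against hour of day for 12 called genes, with each array as a point (blue circles: short day, times 18 and 22 h; orange squares: first long day, times 42, 44 and 46 h) and lines through the geometric means of 2 arrays. The groups are apart in 11 panels, and in SOCS3 the lowest long-day array, at 32.9, lies just under the highest short-day array, at 33.4.

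CREM, a transcription factor gene of the cyclic AMP pathway whose inducible form represses cyclic AMP targets, was called on both of its probe sets. On the brighter one it read 140.9 and 130.8 at short-day hour 18 and 116.5 and 122.3 at hour 22. The 6 long-day arrays ran from 251 through 386 to 462, so every one of them exceeded every short-day array. CREM rose 2.87-fold there (interval 2.42 to 3.41, log2 difference 1.52, SE 0.122, adjusted p = 2.23e-10). On the dimmer probe set the short-day signals were 30.7 to 40.3 and the long-day signals 71.3 to 207, a 4.26-fold difference (interval 3.18 to 5.70, adjusted p = 4.41e-08). Whether the 2 probe sets read different transcripts of CREM cannot be told from these files. PRKX, a protein kinase related to the catalytic subunit of kinase A, was lower on its brightest probe set, at 688 to 773 on the short day and 396 to 563 on the long day (1.45-fold, adjusted p = 0.0226). That call was lost without either array of time 18 or 22 h (adjusted p 0.0829 to 0.149) and in 9 further alternatives, and the other 2 PRKX probe sets were not called.

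Of 37 tested members of the cyclic AMP list 1 was called, CREM, with a median difference of -0.005 and with 17 positive and 20 negative differences. Without adjustment 4 were higher and 2 lower at a p under 0.05, which is 16.2% of the list against 5.72% of all genes. By p the next members were RAPGEF2, an exchange factor (-0.21, adjusted p = 0.784), GNAS, the stimulatory G protein subunit (-0.24, adjusted p = 0.806), and PDE8A, a cyclic AMP phosphodiesterase (0.57, adjusted p = 0.837).

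EGR1, an immediate early zinc finger factor, read 511 and 600 at short-day hour 18 and 527 and 564 at hour 22. Its long-day arrays lay between 828 and 1364 around a median of 1000, without overlap. EGR1 was 1.90-fold higher (interval 1.61 to 2.25, log2 difference 0.93, adjusted p = 1.16e-05). In the mornings EGR1 had read 683 to 931 at short-day hours 2 and 6, 1060 and 1379 at 26 h, and 776.6 and 781.5 at 30 h. At short-day hour 10 it had read 431 and 498. Short-day night values were thus below those of the morning. Within the long day EGR1 also rose, from 597.3 to 752.1 at 36 and 38 h to 1199 and 938.2 at 40 h. In the 5 compared time points fitted alone its adjusted p was 0.0636. Of 22 immediate early genes tested, EGR1 was the 1 called and the median difference was 0.19 log2. Differences were positive in 17 (77.3%, against 50.2% of all genes), and at an unadjusted p under 0.05 there were 5 higher and 1 lower (27.3%, against 5.72% of all genes). The next by p were not called, with NR4A3 at 0.97 (adjusted p = 0.384), PLK2 at 0.48 (adjusted p = 0.675) and ARC at 0.52 (adjusted p = 0.784).

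SOCS3, an inhibitor of cytokine signalling through gp130, read 15.3 and 13.1 at short-day hour 18 and 29.8 and 33.4 at hour 22. The long-day arrays ran from 32.9 through 115 to 139. The lowest of these was replicate 1 of 42 h, which touched the short-day range, while the other 5 lay between 103 and 139. SOCS3 rose 4.50-fold (interval 2.80 to 7.25, log2 difference 2.17, adjusted p = 5.51e-04), and the call was not made with 1 mean per group in the 10 arrays alone (adjusted p = 0.10). Of 23 genes of gp130 signalling 1 was called and 15 were positive (65.2%, against 50.2% of all genes), with a median of 0.09. At an unadjusted p under 0.05 there were 4 higher and 0 lower (17.4%, against 5.72% of all genes). CEBPB, a bZIP factor, had a difference of 0.92 (adjusted p = 0.116), CISH, another SOCS family member, one of 1.36 (adjusted p = 0.78) and JAK1 one of 0.35 (adjusted p = 0.858). The summed signal of the 22 uncalled members was 529.6 to 573.8 in the short-day arrays and 593.2 to 661.5 in the long-day arrays, a description with no test. Much of that gap came from few members, as mean signals went from 37.6 to 72.7 for CEBPB and from 65.7 to 85.2 for JAK1. Differences were negative in 8 genes of the list.

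PLSCR1, a phospholipid scramblase, read 228, 209, 196 and 226 on the short day and 290 to 517, with a median of 412, on the long day. It rose 1.86-fold without overlap (interval 1.57 to 2.21, adjusted p = 4.08e-05). The other 2 PLSCR1 probe sets had differences of 0.63 and 0.70 and did not pass (adjusted p = 0.0725 and 0.157). STON2, an endocytic adaptor, was 1.55-fold higher (100 to 134 against 163 to 206, adjusted p = 0.0379), a call kept in 9 of 25 alternatives. GRIA1, a subunit of AMPA glutamate receptors, was called on a dimmer probe set (1.95-fold, adjusted p = 0.0252) and not on its brightest (difference 0.22, adjusted p = 0.976). PCSK7, a proprotein convertase, was likewise called on a dimmer probe set (2.79-fold, adjusted p = 0.0252) and not on its brightest (difference 0.56, adjusted p = 1). The GRIA1 and PCSK7 calls held in 13 and 12 of 25 alternatives. They were lost without single arrays of the short day (adjusted p up to 0.293 for GRIA1 and 0.191 for PCSK7) or of the long day (up to 0.123 and 0.11).

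Among chaperones of the endoplasmic reticulum 1 passed. HSP90B1, the hsp90 of that compartment, read 676 and 535 at short-day hour 18 and 768 in both arrays of hour 22. Its long-day signals were 882, 1060 and 1173 at the lowest, median and highest array. HSP90B1 rose 1.54-fold without overlap (interval 1.32 to 1.80, adjusted p = 0.00632). The call was lost without replicate 2 of 18 h (adjusted p = 0.159) and in 5 other alternatives, the values as deposited among them, and a second probe set with signals of 6.01 to 15.2 went the other way without passing (-0.32). Of 28 tested members of the list 22 had positive differences (78.6%, against 50.2% of all genes), with a median of 0.15. At an unadjusted p under 0.05, 10 were higher and 1 lower, 39.3% of the list against 5.72% of all genes. This list too was chosen with earlier results of these data known. HYOU1 had a difference of 0.48 (adjusted p = 0.221), SDF2L1 one of 1.04 (adjusted p = 0.558) and HSPA5, which encodes BiP, one of 0.35 (adjusted p = 0.659). Among 29 cytosolic and mitochondrial heat shock genes limma called 0, with 2 higher and 0 lower at an unadjusted p under 0.05 (6.90%). The closest was FKBP4, a partner of hsp90, at 0.55 (adjusted p = 0.10).

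A separate group of transcripts was lower, most of them from genes known for liver and plasma proteins. ALB, serum albumin, read 162 and 85.1 at short-day hour 18 and 479 and 163.5 at hour 22. On the long day it lay between 6.69 and 18.3, with a median of 13.0, in every array far under those short-day arrays. ALB was 14.9-fold lower (interval 8.29 to 26.7, log2 difference -3.90, SE 0.416, adjusted p = 1.98e-07). The short-day night values of ALB were high for that day, as it had read 20.3 to 73.6 at short-day hours 2 to 10. TTR read 96.5, 50.1, 266 and 65.4 on the short day and 13.6 to 29.5 on the long day. It fell 4.99-fold (interval 3.01 to 8.26, adjusted p = 5.17e-04), but not past the threshold in the compared time points or the 10 arrays fitted alone (adjusted p up to 0.214). AvBD9, an avian beta-defensin, was 6.01-fold lower, at 49.7 to 75.3 on the short day and 5.22 to 18.1 on the long day (adjusted p = 0.00487). At short-day hours 2 to 10 AvBD9 had read 12.1 to 29.9, so its values in the short-day night were high for that day. The AvBD9 call was just lost without replicate 2 of 18 h (adjusted p = 0.0543). The log2 difference of LBFABP, which encodes a fatty acid binding protein of avian liver, was -2.36 (adjusted p = 0.0153). Its size is not known, since 5 of 6 long-day arrays and 1 of 4 in the short day were at the floor. The LBFABP call was lost in 8 of 24 alternatives. Among these were the fit with no floor (adjusted p = 0.617), the compared time points alone (0.552) and 1 mean per group in the 10 arrays alone (0.449). The other 5 left out single arrays, replicate 1 of 18 h (0.336) or of 22 h (0.193) on the short day, and replicate 2 of 42 h (0.0515), replicate 1 of 44 h (0.0604) or replicate 2 of 46 h (0.0526) on the long day.

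ALB, TTR and LBFABP were all highest in replicate 1 of 22 h, and without that array the calls of ALB and TTR were kept. Of 16 genes on the liver list, which holds AvBD9 and not TTR, 3 were called lower (ALB, AvBD9 and LBFABP). Differences were negative in 13, and the median was -0.56 log2. At an unadjusted p under 0.05, 8 were lower and 0 higher, 50% of the list against 5.72% of all genes. That list had been drawn up with the values of these genes known. The summed signal of its uncalled members was 8216 to 10450 in short-day arrays and 8770 to 9815 in long-day arrays. Most of that sum came from APOA1, an apolipoprotein (3480 to 4980 and 3630 to 4440), and TF, transferrin (3410 to 4430 and 3580 to 4440). Of 10 choroid plexus markers TTR was the 1 called, and the others summed to 822.1 to 912.7 and 743.7 to 1017. Their part in the TTR difference was not tested.

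BAZ2B, a bromodomain protein, was lower on its brightest probe set, at 146 to 175 on the short day and 64.8 to 103 on the long day (1.75-fold, adjusted p = 0.0135). It was not called in 10 of 25 alternatives, among them without replicate 1 of 18 h (adjusted p = 0.137), and 3 other BAZ2B probe sets were not called. The 4 probe sets without a symbol were Gga.2461.1.S1_at (2.87-fold higher, adjusted p = 9.34e-07), Gga.11602.1.S1_at (2.20-fold higher, adjusted p = 0.0195), Gga.2838.1.S1_at (2.52-fold higher, adjusted p = 0.0424) and Gga.488.1.S1_at (1.66-fold lower, adjusted p = 0.00688). Gga.2461.1.S1_at read 28.5 to 44.0 on the short day and 84.0 to 146 on the long day and was called in all 25 alternatives. Gga.2838.1.S1_at was called in 6 of them, Gga.11602.1.S1_at in 14 and Gga.488.1.S1_at in 19. The call of Gga.11602.1.S1_at was lost without any 1 of the 4 short-day arrays (adjusted p 0.0742 to 0.137) and without replicate 2 of 42 h (0.109), 44 h (0.133) or 46 h (0.125). That of Gga.488.1.S1_at was lost without replicate 2 of 18 h (0.0746) or of 22 h (0.179).

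Few cell type markers and no gene of the clock, neuropeptide or ErbB lists passed over these hours as a whole. Limma called 0 of 19 clock genes, with 4 higher and 0 lower at an unadjusted p under 0.05 (21.1%, against 5.72% of all genes). Of 28 hypothalamic neuropeptides it called 0, with 1 higher and 2 lower without adjustment (10.7%). Of 19 ErbB signalling genes it called 0, with 0 higher and 1 lower (5.26%). Tanycyte and ependymal markers had 1 call in 15, DIO2. At an unadjusted p under 0.05, 3 of them were higher and 0 lower (20%, against 5.72% of all genes). VIM, the intermediate filament vimentin of tanycytes, had a difference of 0.62 that did not pass (adjusted p = 0.143). VIM read 1629 to 1879 on the short day, 1359 and 2320 at long-day hour 18, and 2878 to 3778 at hours 20 and 22. SOD3, an extracellular superoxide dismutase on the astrocyte list, missed the threshold with a difference of 1.08 (33.4 to 43.4 against 59.6 to 111, adjusted p = 0.051). The 2 other astrocyte markers with an unadjusted p under 0.05 were lower, S100B at -1.175 (adjusted p = 0.878) and GLUL at -0.339 (adjusted p = 0.914).

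The pituitary list had 2 calls in 10, CGA and TSHB. Without them its summed signal was 237.4 to 280.8 on the short day and 217.4 to 290.8 on the long day, with PRL at 9.82 to 18.3 and 16.2 to 36.6 and GH at 2.33 to 12.8 and 2.61 to 23.1. No member was called in limma among oligodendrocyte (7 tested), microglia and leukocyte (12), erythrocyte (7), endothelium (11), fibroblast and meninges (11), neuron (11) or astrocyte (9) markers. With no adjustment, these lists held at p under 0.05 1 (14.3%), 0, 0, 1 (9.09%), 3 (27.3%), 0 and 3 (33.3%) genes. Over all genes the share was 5.72%. All 3 of the fibroblast list were lower, led by FMOD (-1.52, adjusted p = 0.384) and COL3A1 (-1.26, adjusted p = 0.784). FMOD was at the floor in 4 long-day arrays, and COL3A1 read 12.8 to 72.0 on the short day and 6.28 to 26.8 on the long day. The brighter fibroblast markers DCN (-0.075), COL1A1 (-0.106) and COL1A2 (-0.058) hardly differed. Measures of RNA and array quality overlapped between the groups. The deposited trimmed mean was 30.83 to 34.99 on the short day and 30.73 to 37.9 on the long day (exact permutation p = 0.348, two-sided, 210 splits), and the 3' to 5' ratio of actin was 6.89 to 9.04 and 6.63 to 7.95 (exact permutation p = 0.133). With the share at the floor and the GAPDH ratio these made 4 measures, with adjusted p from 0.533 to 0.686.

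Hour by hour, a core of the differences was already present at hour 18 and lasted to hour 22. For ALB the difference was seen before these hours, in the morning of the long day, as given below. DIO3, DIO2, TSHB, CGA, ALB, both CREM probe sets and Gga.2461.1.S1_at passed at each of the 3 hours, which makes 8 of the 23. Another 8 passed at no single hour. Counts were 13 at hour 18 (0.0406%), 11 at hour 20 (0.0343%) and 12 at hour 22 (0.0374%). The sign was the same at all 3 hours in 22 of the 23. That count carries no weight, since the 23 were chosen on the mean of these same 3 differences. These comparisons share their short-day arrays with each other and with the comparison over all 3 hours. In the compared time points fitted alone the counts were 0, 1 and 0 (2067, 1836 and 2079 with an unadjusted p below 0.05). The count at hour 18 was 8 without replicate 2 of 42 h and 20 without replicate 1 of 18 h, and that at hour 20 was 5 without replicate 2 of 44 h.

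The hours also differed in the genes that passed. DIO3 was 8.58-fold lower at hour 18, 13.0-fold at hour 20 and 15.4-fold at hour 22. DIO2 was 3.21-, 4.71- and 4.52-fold higher, and CREM 2.19-, 3.32- and 3.27-fold on its brighter probe set. CGA was 4.41-, 2.97- and 2.49-fold higher, and its short-day signal was higher at hour 22 than at hour 18. At hour 22 both short-day TSHB arrays were at the floor, so TSHB was at least 8.89-fold higher there.

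Some genes passed at a part of the hours. EGR1 passed at hours 18 and 20 (2.01-fold, adjusted p = 0.0136, and 2.10-fold, adjusted p = 3.30e-04) and not at hour 22 (1.63-fold, adjusted p = 0.485). PLSCR1 passed at hours 20 and 22 (1.92-fold, adjusted p = 0.00495, and 2.21-fold, adjusted p = 0.00239) and not at hour 18 (1.51-fold, adjusted p = 0.768). SOCS3 passed at hour 20 (5.57-fold, adjusted p = 0.0113), and TTR and AvBD9 at hour 22 (7.15- and 12.2-fold lower, both adjusted p = 0.0302). The dimmer PCSK7 probe set passed at hour 18 (7.06-fold, adjusted p = 0.00527) and Gga.2838.1.S1_at at hour 22 (6.88-fold, adjusted p = 8.44e-04).

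At hour 18 a clock gene and a neuropeptide gene that were not called over the 3 hours passed as well. CRY1, a repressor of the clock, read 71.0 and 65.7 on the short day against 154 and 127 on the long day and was 2.05-fold higher (interval 1.59 to 2.63, adjusted p = 0.00631). CRY1 had read 150.5 to 190.4 at short-day hours 2 to 10, so its short-day values at hour 18 were low for that day. At hour 22 the CRY1 difference was -0.03 log2. NMB, neuromedin B, read 65.8 and 63.9 on the short day against 24.5 and 13.5 on the long day and was 3.56-fold lower (interval 2.29 to 5.55, adjusted p = 0.00631), and at hour 20 its difference was -0.09. LRTM2, which encodes a leucine-rich repeat transmembrane protein, was 4.52-fold lower at hour 18 (46.2 and 39.1 against 16.7 and 5.30, adjusted p = 0.0201).

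The change of the difference between hours 18 and 22 was tested directly, and limma called 0 probe sets (0%), with 1335 at an unadjusted p under 0.05. The differences between the hours described above are therefore values and not established changes over the 4 h. For DIO3 the change was -0.85 log2 and for CGA -0.83. For EGR1 it was -0.30 and for PLSCR1 0.55, all with an adjusted p above the threshold.

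**Figure D3:**
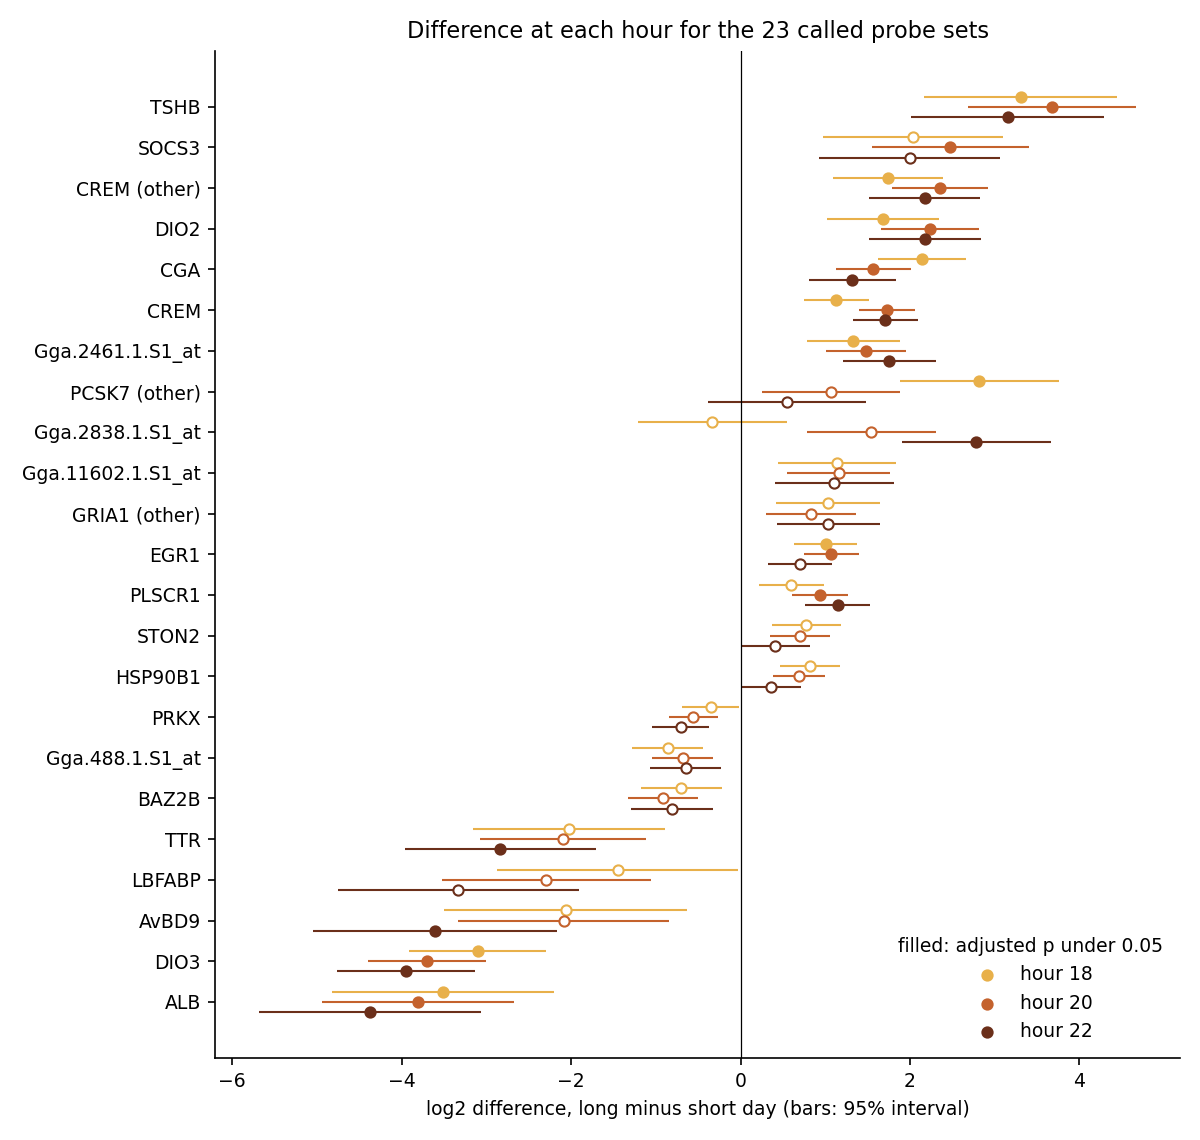
Log2 difference between the first long day and the short day at hours 18, 20 and 22 for the 23 called probe sets, with 95% intervals from limma and filled points where the adjusted p was under 0.05. DIO3, ALB, TSHB, DIO2, CGA and CREM are filled at all 3 hours, Gga.2838.1.S1_at lies at -0.33 at hour 18 and 2.78 at hour 22, and "other" marks a probe set that is not the brightest of its gene.

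The morning of the same long day gave a reference in which light on both days had been equal by the reading of the labels. Times 26 and 30 h against times 2 and 6 h had 1 call (0.00312%), which was none of the 23. The difference at hours 18 to 22 minus the morning difference was then tested, with no array in common between both. Of the tested probe sets 7 passed (0.0218%). They were DIO3 (-3.79, interval -4.57 to -3.02, adjusted p = 2.56e-07), both CREM probe sets (1.46, adjusted p = 2.56e-05, and 1.97, adjusted p = 0.0013), CGA (1.65, adjusted p = 6.73e-04), DIO2 (1.91, adjusted p = 0.00298), PLSCR1 (1.16, adjusted p = 0.0013) and Gga.2461.1.S1_at (1.55, adjusted p = 0.00333). In the morning itself DIO3 differed by 0.21, DIO2 by 0.12, CGA by 0.03 and the CREM probe sets by 0.07 and 0.12 log2, none of them called.

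For other called genes the later difference was not shown to exceed the morning one. ALB was lower by 2.19 log2 already in the morning (unadjusted p = 2.85e-05, adjusted p = 0.182), and the further difference of -1.71 did not pass (adjusted p = 0.998). TSHB had a morning difference of 1.09, and the further 2.28 did not pass (adjusted p = 0.328). The same held for SOCS3 (2.09, adjusted p = 0.328), EGR1 (0.65, adjusted p = 0.679) and TTR (-1.81, adjusted p = 0.723).

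Hours 14 and 16, when TSHB first rose, gave a second reference, set against the same 10 arrays. Against hour 14 of the short day the arrays of times 38 and 40 h had 1 call (0.00312%), TSHB, with a difference of 4.22 log2. Only DIO3 changed past the threshold from those hours to hours 18 to 22 (1 probe set, 0.00312%). Its difference went from -0.20 to -3.58, a change of -3.39 (interval -4.26 to -2.51, adjusted p = 8.34e-05). DIO2 went from 0.75 to 2.03 (change 1.28, adjusted p = 0.998) and CREM from 0.52 to 1.52 (change 1.00, adjusted p = 0.224). SOCS3 went from 0.16 to 2.17 (change 2.02, adjusted p = 1), and TSHB changed by -0.85 (adjusted p = 1). This count was 7 without replicate 1 of 14 h, DIO3 among them, and 2 without replicate 2 of 18 h, replicate 1 of 22 h or replicate 1 of 42 h.

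**Figure D4:**
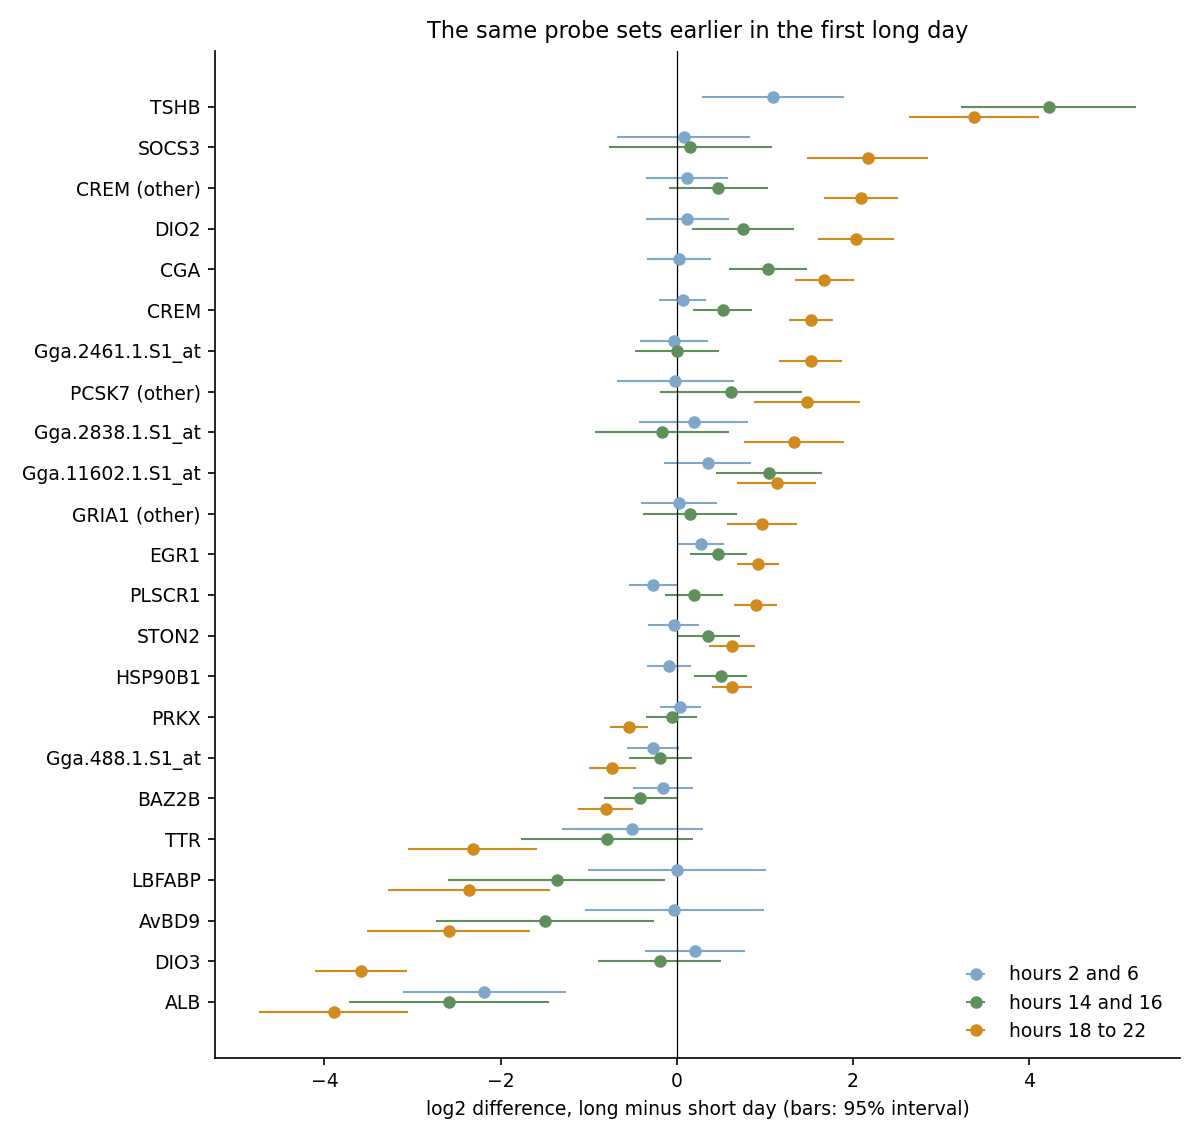
Log2 difference between the first long day and the short day for the same 23 probe sets at hours 2 and 6 (blue), hours 14 and 16 (green) and hours 18 to 22 (orange), with 95% intervals from limma; "other" marks a probe set that is not the brightest of its gene. DIO3 stands at 0.21 and -0.20 before it reaches -3.58, whereas TSHB is already at 4.22 at hours 14 and 16 and ALB at -2.19 at hours 2 and 6.

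At the same hours of the second long day DIO3, CREM, EGR1 and SOCS3 passed as lower than on the first in the fit over all arrays, calls that depended on the model. Times 66 and 70 h were compared with times 42 and 46 h, without any short-day array. Of the tested probe sets 8 passed (0.025%), 7 lower and 1 higher on the second long day. In the compared time points fitted alone 1 passed, which was none of the 8, and with brightness as a covariate 4 passed, 2 of them among the 8. On the values as deposited 37 passed, with 7 of the 8 among them. Without replicate 2 of 42 h, 3 passed (2 of the 8), and without replicate 2 of 46 h, 3 passed (all among the 8). The deposited trimmed means did not overlap, at 26.62 to 27.97 for the arrays of 66 and 70 h and 30.73 to 37.9 for those of 42 and 46 h. DIO3 fell further, from mean signals of 51.9 ± 15.9 (SD, n = 2) at 42 h and 31.3 ± 5.45 at 46 h to 19.3 ± 0.9 at 66 h and 6.97 ± 0.721 at 70 h, a 3.43-fold difference (interval 2.30 to 5.09, adjusted p = 0.00303). DIO2 differed by -0.44 log2, not past the threshold (interval -0.91 to 0.03, adjusted p = 0.869), with 119 ± 1.35 at 66 h and 161 ± 2.77 at 70 h.

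CREM was 2.13-fold lower than on the first long day on its brighter probe set (adjusted p = 2.18e-05), at 141 ± 1.23 and 181 ± 4.95, and 2.26-fold lower on the other (adjusted p = 0.0417). EGR1 was 2.07-fold lower (adjusted p = 2.18e-05), at 469 ± 66.4 and 492 ± 53.1. SOCS3 was 4.27-fold lower (adjusted p = 0.0115), at 16.5 ± 4.07 and 25.3 ± 7.64. Gga.2461.1.S1_at was 2.12-fold lower (adjusted p = 0.0115). CGA and TSHB, by contrast, did not differ past the threshold from the first long day (0.42, adjusted p = 0.809, and 0.82, adjusted p = 0.866). TSHB stood at 106 ± 5.94 at 66 h and 87.2 ± 18.3 at 70 h.

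The other 2 calls of that comparison were a dimmer DCLK1 probe set, of a doublecortin-like kinase, at -0.93 (adjusted p = 0.00962) and FAM150B, which encodes a ligand of receptor kinases in mammals, at 1.05 (adjusted p = 0.0441). FAM150B was not called on the values as deposited, where 37 probe sets passed and all were lower. The count was 3 without replicate 2 of 42 h and 3 without replicate 2 of 46 h.

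**Figure D5:**
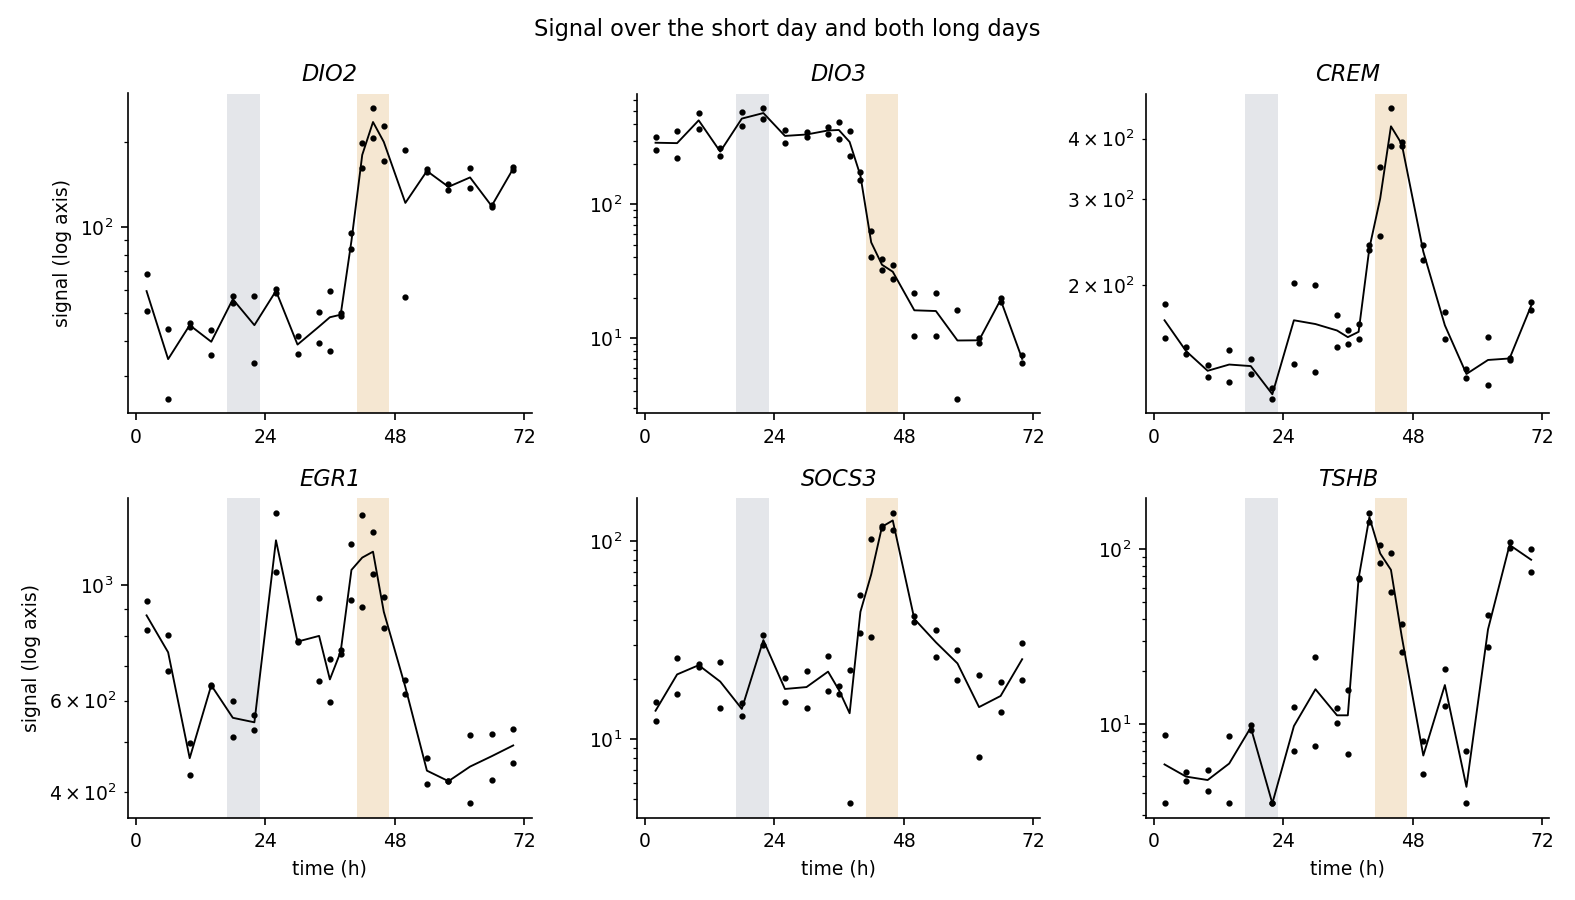
Signal on a log axis over all 21 time points for 6 genes, with each array as a point, raised to the floor where lower, and a line through the means of 2 arrays. Grey bands mark the short-day arrays (18 and 22 h) and orange bands the long-day arrays (42, 44 and 46 h): CREM, EGR1 and SOCS3 are lower after the orange band, DIO3 reaches 6.97 at 70 h, DIO2 is at 161 there, and TSHB is low at 50 h and high again at 66 and 70 h.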

How the data were processed

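The authors deposited linear signal intensities of each probe set for all 42 arrays, made with GCOS 1.2 per the submitters' processing notes; detection calls were not used here. Each array was multiplied by 1 factor (0.796 to 1.29) to a common 2% trimmed mean of 32.42, control probe sets were dropped, and log2 was taken after a floor of 3.509 had been set. Probe sets above the array median on at least 2 arrays were tested (32057). A model with 1 mean per time point over all arrays was fitted in limma 3.58.1 (R 4.3.3, empirical Bayes with a variance trend, 21 residual degrees of freedom). Tests were two-sided, with Benjamini-Hochberg adjustment over all tested probe sets and a threshold of 0.05. The 2 arrays per time point limit the precision. The scripts were tested on simulated data.

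Platform annotation gave 1 symbol to 23434 tested probe sets (12311 genes), and the brightest probe set stood for a gene. Of these genes, 10268 match a symbol of the quail RefSeq annotation. The text names DIO2, DIO3, CREM, called members of the thyroid and cyclic AMP lists, all called genes of the same sign at every hour, up to 4 members per list by p, and the 5 smallest p-values in each direction of the other comparisons. The members of the comparison and the gene lists were chosen with earlier results of these data known. The labels call the arrays of a time point biological replicates. Their numbers were not used to pair the samples in the main fit. Deviations of same-numbered arrays correlated at 0.00676 to 0.0263 over 10 pairs of time points, 0 of them above 0.1. Such low values cannot show whether same-numbered pools were handled together.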

Additional observations from a re-analysis of the deposited data

Results flagged for a closer look

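In 5 of 46 groups of arrays tested, the highest or lowest array stood apart from the rest, relative to the range of its group. Chance alone marks about 1 in 20 groups drawn from 1 normal distribution, whereas these groups mix time points. Among the short-day arrays, BAZ2B was highest in replicate 1 of 18 h, at 175.1, and DIO2 was lowest in replicate 1 of 22 h, at 33.42. Among the long-day arrays, replicate 1 of 42 h was lowest for SOCS3, at 32.86, and for the dimmer CREM probe set, at 71.29. LBFABP was highest in replicate 2 of 44 h, at 4.032, the single long-day array above the floor of 3.509. It was flagged because the other 5 long-day arrays had been set to that floor.

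The difference at hours 18 to 22 departed from that at hours 2 and 6 in an interaction test with limma for 7 probe sets. The departures were -3.79 log2 for DIO3, 1.91 for DIO2, 1.65 for CGA, 1.46 and 1.97 for the CREM probe sets, 1.16 for PLSCR1 and 1.55 for Gga.2461.1.S1_at. For DIO3 it departed from that at hours 14 and 16 too, by -3.39.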

How the results depend on the processing

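DIO2, DIO3, both CREM probe sets, ALB, TSHB, PLSCR1 and Gga.2461.1.S1_at were called over hours 18 to 22 in all 25 alternatives. CGA, EGR1, SOCS3 and AvBD9 were called in 24. Smaller differences depend on single arrays, and 2 arrays per time limit every count. The counts below are limma calls against 23 over hours 18 to 22, 13 at hour 18, 11 at hour 20, 12 at hour 22, 0 for the change within these hours, 7 against the morning, 1 against hours 14 and 16, and 8 for the second against the first long day.

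With a floor of 14.03 these 8 counts were 54, 39, 34, 27, 13, 21, 10 and 86, in that order. On the values as deposited, hour 18 had 6 (3 higher, 3 lower, against 9 and 4) and the second long day 37, all lower. On those values the median of all probe sets was -0.23 log2 for the second long day and 0.13 at hour 20. It was 0.22 against the morning and 0.20 against hours 14 and 16. In the main fit these 4 medians were 0.029, 0.004, -0.036 and -0.002. With median centring, hour 18 had 7 (3 higher, 4 lower). With log2 of the signal plus 16, 12 passed against the morning. Without a filter the change within the hours had 1, the comparison with hours 14 and 16 had 2 and the second long day 21. Without a variance trend the counts were 15 over all hours, 5 at hour 18, 1 within the hours, 4 against the morning and 3 against hours 14 and 16. With array weights 2 passed against hours 14 and 16, and with brightness as a covariate 4 passed on the second long day. In the compared time points alone the counts were 11 over all hours, 0 at hour 18, 1 at hour 20, 0 at hour 22, 2 against hours 14 and 16 and 1 on the second long day. The 10 arrays with 1 mean per group gave 14. The causes were not tested.

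Without single arrays the counts ran from 17 to 29 over all hours, 8 to 20 at hour 18, 5 to 16 at hour 20, 9 to 18 at hour 22, 0 to 2 within the hours, 7 to 9 against the morning, 1 to 7 against hours 14 and 16 and 3 to 12 on the second long day. With a replicate block 25 were called over all hours (17 higher, 8 lower), 14 at hour 18 and 12 at hour 20, and the other counts did not move. Other probe sets reversed the sign for TTR (0.21), BAZ2B (0.18) and HSP90B1 (-0.32), none of them called.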

Other observations

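By gene order on the quail RefSeq assembly, STON2 is the fourth protein-coding gene beyond DIO2, past CEP128, TSHR and GTF2A1. Over hours 18 to 22 the differences were 2.03 log2 for DIO2, 0.16 for CEP128, -0.07 for TSHR, -0.04 for GTF2A1 and 0.63 for STON2, and of these 5 genes DIO2 and STON2 passed in limma. CEP128 was close to the floor, with a mean log2 signal of 2.7 over all arrays, so its value says little. The STON2 call was kept in 9 of 25 alternatives, and another STON2 probe set did not pass (difference 0.68, adjusted p = 0.945). On the other side, NRXN3 differed by -0.01 and SLIRP, 4 genes away, by -1.27, which did not pass in limma (adjusted p = 0.889). The neighbours of DIO3 were looked up as well, and none of those tested passed. Next to DIO3, DLK1 differed by -0.43 (adjusted p = 0.806) and PPP2R5C by 0.87 (adjusted p = 0.882). The neighbours were looked up after the values had been seen.

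VIM stayed high after the hours described, with means of 3480 ± 22 (SD, n = 2) at 50 h and 3520 ± 44.2 at 58 h, after 1840 ± 680, 3190 ± 442 and 3460 ± 444 at 42, 44 and 46 h. VIM was not called over hours 18 to 22.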
